A study of Mus musculus with 17 samples.

Results

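Cyp17a1, As3mt and 8 neighbouring genes on mouse chromosome 19 were followed across 17 liver libraries of mice that differ in their Khdc3 genotype and in the Khdc3 genotype of their ancestors. The 10 genes were taken by symbol from a table of 27020 genes, and all 10 passed the filter on low values that left 16157 genes. They are Mfsd13a, Trim8, Arl3, Sfxn2, Wbp1l, Cyp17a1, Borcs7, As3mt, Cnnm2 and Nt5c2, in the order of their start positions. The set was selected on the normalized read counts of Cyp17a1 and As3mt, which were high against WT in every group with Khdc3-null ancestors, and filled with neighbours on the chromosome. Differences from WT are therefore given below as a description, with no test for any of the 10 genes. Differences among the groups with Khdc3-null ancestors were not what the set was chosen on, and they were tested. The choice did require Cyp17a1 and As3mt to be high in each of these groups, so their tests are not fully independent of it.

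RNA was sequenced from livers of mice aged 8 weeks, and Khdc3, deleted in the null mice, encodes a protein of the oocyte and early embryo. WT mice had WT ancestors (n = 4), and KO mice were Khdc3-null with KO ancestors (n = 3). WT_star mice (n = 4) were females of WT genotype whose parents were heterozygous and whose grandparents included both WT and KO animals. KO_star mice (n = 6) were Khdc3-null females with that same mixed ancestry. No strain, parent of origin or batch is given in the sources used here, nor whether mice were littermates. The p-values rest on the spread between these samples and treat the libraries as independent. They may be too small if littermates share a group. The sex of WT and KO mice is likewise not stated. Libraries are named by their group and the number in their title.

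CYP17A1 is a cytochrome P450 that hydroxylates pregnenolone and progesterone and then cleaves their side chain, a step on the way to androgens. It is known chiefly from the gonads and, in many mammals, the adrenal cortex. AS3MT, an enzyme prominent in liver, transfers methyl groups from S-adenosylmethionine to arsenic. In human genetics the interval that holds both genes, together with BORCS7, CNNM2 and NT5C2, is known as a single broad association region in which many variants are inherited together.

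All 10 genes are protein coding and lie on chromosome 19 (GRCm38, GENCODE M21), within 674 kb. Cyp17a1 occupies chr19:46667165-46673172 on the minus strand. Borcs7 starts 16.7 kb from the Cyp17a1 start (chr19:46689906-46703382, plus strand), and As3mt starts 34.3 kb from it (chr19:46707458-46741099, plus strand). On the same side lie Cnnm2 (chr19:46761596-46880192, plus strand) and Nt5c2 (chr19:46883317-47015153, minus strand). On the other side lie Wbp1l (chr19:46599084-46657389, plus strand), Sfxn2 (chr19:46573365-46598066, plus strand), Arl3 (chr19:46531096-46573198, minus strand), Trim8 (chr19:46501702-46516848, plus strand) and Mfsd13a (chr19:46341121-46375252, plus strand). Arl3 and Sfxn2 are read in opposite directions from starts 167 bases apart. Mfsd13a overlaps 2310034G01Rik on the opposite strand over 2102 bases, and since the strand setting of the counting is not given, reads there cannot be assigned by strand. That gene had at most 10 reads in any library.

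The promoter windows of 3 genes are shown because their libraries with Khdc3-null ancestors all lay above the WT libraries, and the Sfxn2 window is also that of a neighbour that did not separate. Each runs from 250 bases before the RefSeq start to 50 bases after it (GRCm38.p6, plus strand, 5′ to 3′). The RefSeq start is that of GENCODE for As3mt and Sfxn2, whereas for Mfsd13a it lies 15.8 kb inside the gene as GENCODE gives it. Capitals mark GCGTG, the core bound by the aryl hydrocarbon receptor, on either strand.
As3mt, chr19:46707208-46707507: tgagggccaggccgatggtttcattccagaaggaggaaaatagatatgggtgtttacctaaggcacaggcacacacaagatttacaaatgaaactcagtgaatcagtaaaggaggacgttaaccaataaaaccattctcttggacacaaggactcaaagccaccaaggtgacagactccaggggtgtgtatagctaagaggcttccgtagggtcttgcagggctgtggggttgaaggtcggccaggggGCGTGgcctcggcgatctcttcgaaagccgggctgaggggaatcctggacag
Sfxn2, chr19:46573115-46573414: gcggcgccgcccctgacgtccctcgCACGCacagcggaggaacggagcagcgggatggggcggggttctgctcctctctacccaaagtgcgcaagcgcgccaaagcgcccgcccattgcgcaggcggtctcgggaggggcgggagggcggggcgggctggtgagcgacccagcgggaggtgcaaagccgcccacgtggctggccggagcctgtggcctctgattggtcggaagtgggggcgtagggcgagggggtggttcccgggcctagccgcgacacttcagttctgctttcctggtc
Mfsd13a, chr19:46356630-46356929: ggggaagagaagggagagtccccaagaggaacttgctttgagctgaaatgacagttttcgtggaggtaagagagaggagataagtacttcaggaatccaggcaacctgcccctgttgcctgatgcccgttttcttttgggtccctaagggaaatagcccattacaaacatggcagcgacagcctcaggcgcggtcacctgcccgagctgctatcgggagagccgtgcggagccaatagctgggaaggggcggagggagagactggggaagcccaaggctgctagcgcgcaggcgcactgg

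Of the 10 genes, 8 had a promoter window in that table. Cyp17a1 and Trim8 had none, so their promoters were not searched for any motif. The Sfxn2 window shares 282 of its bases with the Arl3 window on the other strand. In all, 4 motifs were searched on both strands. The motif GCGTG had 1 match in the As3mt window, 1 in the shared Sfxn2 and Arl3 sequence and 5 in the Cnnm2 window. Nt5c2 has 7 windows, of which 3 held it, with 4 matches in all. The Mfsd13a, Borcs7 and Wbp1l windows had no match to it, and it is found in 32.4% of the 32851 windows of the same length in the table. No window of the 8 genes held the nuclear receptor half-site AGGTCA, found in 16.3% of all windows. The same held for its extended form AAGGTCA, which contains it and is found in 4.72%. The cyclic AMP response element TGACGTCA, found in 1.79%, was not there either. These matches describe letters in these windows only.

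Reads in genes numbered 17.62 to 26.70 M per library, and Khdc3 itself had 0 to 4 reads in every library, so its level in liver does not check the genotype labels. The labels give the tissue as liver and the cell type as hepatocyte, and 5 hepatocyte markers (Alb, Apoa1, Ttr, Cyp2e1, Tat) were abundant in every library. Their summed normalized read count was 2.35 to 2.41 M in WT, 1.54 to 1.79 M in KO, 1.72 to 1.97 M in WT_star and 1.92 to 2.55 M in KO_star, none of these genes being at 0. The sum was mostly albumin, which took 9.11% to 10.2% of the reads in WT, 6.36% to 7.05% in KO, 7.12% to 8.27% in WT_star and 7.76% to 10.5% in KO_star. Mean Ttr was 91242 in WT and 89395 in KO, and mean Cyp2e1 was 80383 and 79338. Mean Apoa1 was 113512 in WT and 90701 in KO, and mean Tat was 34447 and 23932, so the markers differed unequally. In WT_star the means were 73118 for Apoa1, 77878 for Ttr, 58850 for Cyp2e1 and 29894 for Tat, each below WT. In KO_star mean Ttr was above WT, at 100918, and Apoa1, Cyp2e1 and Tat were below. Their part in the results below was not tested. The KO_star library 16 stood apart: it held 3025 reads of 4 pancreatic acinar markers (Cpa1, Ctrb1, Pnlip, Prss2), where the other 16 libraries held at most 2. Cela1, also on the list of acinar markers, is not in that count. It was present in every library, at a normalized read count of 276 to 1270. In bulk liver RNA, fewer cells of a type and less RNA per cell cannot be told apart.

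Cyp17a1 was low in WT liver and higher in each of the 13 libraries with Khdc3-null ancestors. Its normalized read count was 69.4, 83.8, 53.6 and 62.8 in the WT libraries 25 to 28. It was 2018, 582 and 973 in the KO libraries 30, 31 and 32, and 3244, 1278, 2565 and 1243 in the WT_star libraries 20, 21, 33 and 34. In the 6 KO_star libraries it ran from 464 through a median of 1050 to 1494. The lowest library with Khdc3-null ancestors thus lay far above the highest WT library, and the WT_star libraries 20 and 33 were the highest of all. The mean was 67.4 ± 12.7 (SD, n = 4) for WT, 1191 ± 742 (n = 3) for KO, 2082 ± 989 (n = 4) for WT_star and 1028 ± 426 (n = 6) for KO_star.

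On the log2(value + 1) scale, Cyp17a1 differed from WT by 3.95 (SE 0.48) in KO, 4.82 (SE 0.44) in WT_star and 3.81 (SE 0.41) in KO_star. As folds these are 15.5, 28.2 and 14. Without the KO_star library 16 the KO_star difference was 3.84. The spread within groups also differed. The coefficient of variation of Cyp17a1 was 18.8% in WT, 62.3% in KO, 47.5% in WT_star and 41.4% in KO_star, whereas that of As3mt did not exceed 17% in any group.

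As3mt was higher in the same libraries, by a smaller factor. It measured 271, 317, 310.5 and 324 in the WT libraries 25 to 28. The KO libraries 30, 31 and 32 had 877, 621 and 753, and the WT_star libraries 20, 21, 33 and 34 had 882, 658, 919 and 743. The KO_star libraries ran from 546 through a median of 684 to 773. No library with Khdc3-null ancestors reached down to the WT range. The log2 difference from WT was 1.28 (SE 0.14) in KO, 1.38 (SE 0.13) in WT_star and 1.14 (SE 0.11) in KO_star, or 2.43-, 2.60- and 2.20-fold. Without the KO_star library 16 the last was 1.10.

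Within KO, the library 30 was the highest and the library 31 the lowest for both Cyp17a1 and As3mt. Within WT_star, the libraries 20 and 33 were above 21 and 34 for both genes. Within KO_star, the library 13 was the lowest for both, while the highest was 14 for Cyp17a1 and 16 for As3mt.

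**Figure D1:**
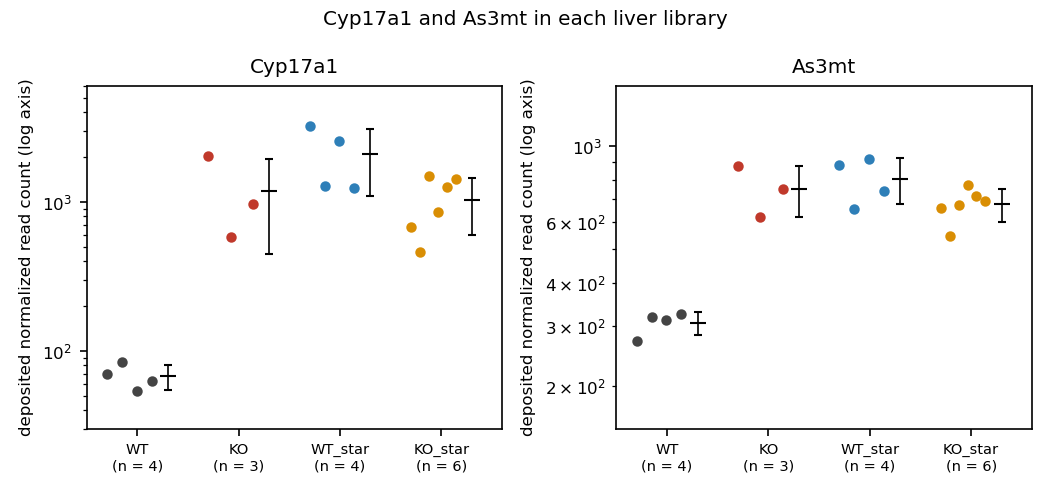
Deposited normalized read counts (log axis) of Cyp17a1 and As3mt by group; each point is 1 liver library and the bars are the mean ± SD. The 4 WT libraries sit at 53.6 to 83.8 for Cyp17a1 and 271 to 324 for As3mt, and each of the other 13 libraries lies above that range.

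Sfxn2 and Mfsd13a also separated fully from WT. Sfxn2 encodes a mitochondrial membrane protein of the sideroflexin family. Its normalized read count was 735, 743, 578 and 646 in WT, 1040.2, 860.3 and 918 in KO, and 1212, 892, 1219.7 and 1229 in WT_star. In KO_star it ran from 984 through a median of 1097 to 1216. The 13 libraries with Khdc3-null ancestors were all above the highest WT library, with the KO library 31 and the WT_star library 21 nearest to it. The log2 difference from WT was 0.48 (SE 0.12) in KO, 0.75 (SE 0.11) in WT_star and 0.72 (SE 0.10) in KO_star.

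Mfsd13a encodes a membrane protein of the major facilitator superfamily of transporters. It measured 96.0, 92.8, 108 and 110.5 in WT, 159, 164 and 189 in KO, and 191, 140.1, 160.0 and 149.5 in WT_star. In KO_star it ran from 166 through a median of 178 to 204. Again no library with Khdc3-null ancestors entered the WT range. For Mfsd13a the log2 difference from WT was 0.74 (SE 0.12) in KO, 0.64 (SE 0.11) in WT_star and 0.82 (SE 0.10) in KO_star. Without the KO_star library 16 it was 0.83 in KO_star, and that of Sfxn2 was 0.69.

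Arl3 and Wbp1l flank Sfxn2, and neither separated from WT in every group with Khdc3-null ancestors. Arl3 encodes a small GTPase that releases lipid-modified cargo in cilia. Its levels were 107.6, 116.6, 82.2 and 91.2 in WT, 107.6, 81.7 and 76.8 in KO, and 93.2, 99.5, 97.6 and 86.6 in WT_star. In KO_star they ran from 80.4 through a median of 103 to 119. The groups overlapped throughout, and the log2 difference of Arl3 from WT was -0.17 (SE 0.16) in KO, -0.07 (SE 0.15) in WT_star and 0.03 (SE 0.14) in KO_star. Across the promoter region shown above, the divergent partner Sfxn2 thus separated from WT where Arl3 did not.

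Wbp1l, whose product is a membrane adaptor that binds WW domain proteins, starts 1017 bases beyond the end of Sfxn2. It measured 5294, 6246, 4834 and 5167 in WT, 6318, 6404 and 6330.2 in KO, and 5523, 5227, 6643 and 5302 in WT_star. In KO_star it ran from 4799 through a median of 6194 to 6988. Only the KO libraries lay wholly above WT, and by a margin smaller than the range within WT. For Wbp1l the log2 difference from WT was 0.24 (SE 0.12) in KO, 0.08 (SE 0.11) in WT_star and 0.18 (SE 0.10) in KO_star.

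Borcs7, the gene between Cyp17a1 and As3mt, encodes a subunit of the BORC complex, which positions lysosomes. Its levels were 145, 139.6, 98.2 and 166 in WT, 186, 165 and 211 in KO, and 175, 164, 203 and 170.2 in WT_star. In KO_star they ran from 175 through a median of 183 to 206. Of the 13 libraries with Khdc3-null ancestors, 11 were above the highest WT library, and the KO library 31 and the WT_star library 21 fell just inside the WT range. The log2 difference from WT was 0.46 (SE 0.15) in KO, 0.39 (SE 0.14) in WT_star and 0.46 (SE 0.12) in KO_star. The differences of the gene between them were thus smaller than those of Cyp17a1 and As3mt in all 3 comparisons.

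Cnnm2, known for a role in magnesium transport in the kidney, measured 270.3, 228, 226 and 237 in WT, 351, 317 and 233 in KO, and 324, 275, 291 and 292 in WT_star. In KO_star it ran from 240.1 through a median of 294 to 325. Of the 13 libraries, 11 were above the WT range, and the KO library 32 and the KO_star library 16 fell within it. For Cnnm2 the log2 difference from WT was 0.30 (SE 0.13) in KO, 0.30 (SE 0.12) in WT_star and 0.28 (SE 0.11) in KO_star, and without the KO library 32 the first was 0.47.

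Nt5c2, a cytosolic nucleotidase that acts on purine nucleotides such as IMP and GMP, went the other way. It measured 474, 439, 508 and 415 in WT, 322, 338 and 408 in KO, and 339.5, 448, 307 and 365 in WT_star. In KO_star it ran from 269.6 through a median of 388 to 426. Of the 13 libraries, 11 were below the lowest WT library, and none was above the highest. For Nt5c2 the log2 difference from WT was -0.37 (SE 0.15) in KO, -0.34 (SE 0.14) in WT_star and -0.33 (SE 0.13) in KO_star.

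Trim8, which encodes a ubiquitin ligase of the tripartite motif family, overlapped WT in every group. It measured 925, 1078, 879 and 927 in WT, 1248, 978 and 897 in KO, and 843, 882, 813 and 921 in WT_star. In KO_star it ran from 914 through a median of 971 to 1044. The KO library 30 was the only one above the WT range.

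**Figure D2:**
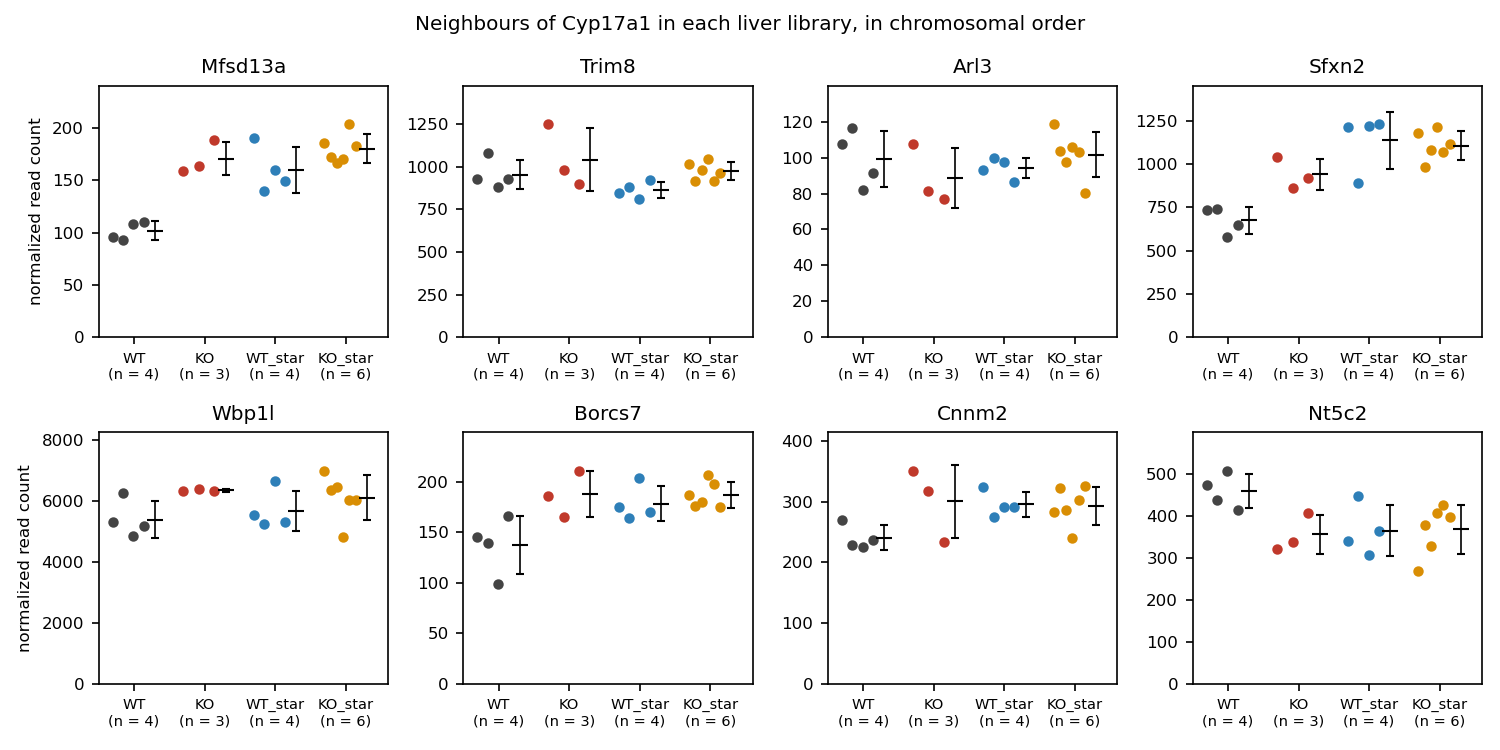
Deposited normalized read counts of the 8 neighbours by group, in chromosomal order; each point is 1 liver library and the bars are the mean ± SD. For Mfsd13a and Sfxn2 the 13 libraries with Khdc3-null ancestors lie above the 4 WT libraries, whereas Trim8 and Arl3 overlap WT and Nt5c2 is below it in 11 of the 13.

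Per exon length, the genes differed widely in level. In reads per kilobase of exon per M reads, Wbp1l was the highest in WT, at 56.4 ± 5.69 (SD, n = 4), followed by Trim8 at 12 ± 0.932, Sfxn2 at 5.44 ± 0.664, As3mt at 4.45 ± 0.263 and Borcs7 at 2.95 ± 0.63. Then came Cnnm2 at 2.18 ± 0.240, Nt5c2 at 1.95 ± 0.191, Arl3 at 1.87 ± 0.292, Mfsd13a at 1.70 ± 0.150 and, last, Cyp17a1 at 1.14 ± 0.205. Neighbours in that order overlapped between Sfxn2 and As3mt and from Borcs7 through to Mfsd13a. They did not overlap between Wbp1l and Trim8, Trim8 and Sfxn2, As3mt and Borcs7, or Mfsd13a and Cyp17a1. In the groups with Khdc3-null ancestors, Cyp17a1 moved from the last place to the second: its level was 21.2 ± 13.7 in the 3 KO libraries, 36.2 ± 17.1 in the 4 WT_star libraries and 17.6 ± 7.36 in the 6 KO_star libraries. The Trim8 level was 13.8 ± 2.77 in KO and 12.4 ± 0.629 in KO_star, so Cyp17a1 libraries overlapped those of Trim8 in KO and KO_star but not in WT_star. As3mt reached 11.5 ± 2.105 in KO and 12 ± 1.79 in WT_star, and 8.17 to 11.5 over the KO_star libraries.

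The groups' overlap was counted against that of all 16157 genes tested, and since these comparisons chose the set, nothing is read from the counts. Groups did not overlap for 18.4% of all genes in KO against WT, 8.95% in WT_star against WT and 2.89% in KO_star against WT, and for 6, 5 and 5 of the 10 genes. Across all 3 comparisons at once, 74 genes (0.458%) were above WT in every library, and 4 of them are Cyp17a1, As3mt, Sfxn2 and Mfsd13a. The median log2 difference of the 10 genes was 0.38, 0.35 and 0.37 in the 3 comparisons, which share the WT libraries, beside 0.01, 0.00 and 0.00 over all genes.

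Differences among the 3 groups with Khdc3-null ancestors could be tested, and none of the 10 genes passed. In KO_star against WT_star, which differ in Khdc3 genotype and share their ancestry, limma called 0% of all genes. At an unadjusted p under 0.05 there were 1185 genes (7.33%), and edgeR called 0 and DESeq2 62. Cyp17a1 was 1.01 lower on the log2 scale in KO_star (log2 difference -1.01, 95% interval -1.88 to -0.14, adjusted p = 0.621 in limma), or 2.02-fold. Its KO_star libraries (464 to 1494) overlapped those of WT_star (1243 to 3244), as 3 of the 6 lay above the lowest WT_star library. It was the only 1 of the 10 with an unadjusted p under 0.05. As3mt had a log2 difference of -0.24 (-0.48 to 0.00, adjusted p = 0.695). Sfxn2 had -0.03 (-0.24 to 0.18, adjusted p = 0.967) and Mfsd13a 0.18 (-0.04 to 0.39, adjusted p = 0.762). For Cyp17a1, As3mt, Sfxn2 and Mfsd13a the intervals leave out a difference as large as that between KO_star and WT. The set was chosen on differences from WT, so this is a description only. The other 6 genes had log2 differences of -0.02 to 0.17.

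In KO_star against KO, which share the null genotype and differ in ancestry, 1.46% of all genes were called and 0 of the 10. Limma's unadjusted p was under 0.05 for 1 of them, beside 17.7% of all genes. That gene, Sfxn2, differed by 0.24 (0.01 to 0.47, adjusted p = 0.269 in limma). Cyp17a1 differed by -0.15 (-1.10 to 0.81, adjusted p = 0.903). Its direction rested on single libraries, with 0.33 without the KO library 30, 0.06 without the KO_star library 13 and -0.57 without the KO library 31. As3mt differed by -0.14 (-0.41 to 0.12, adjusted p = 0.593), and Mfsd13a by 0.08 (-0.16 to 0.32, adjusted p = 0.770).

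In WT_star against KO, which differ in both genotype and ancestry, 1.4% of all genes were called and again 0 of the 10, of which 2 had an unadjusted p under 0.05 in limma, beside 13.8% of all genes. Trim8 was 0.25 lower on the log2 scale in WT_star (log2 difference -0.25, -0.47 to -0.04, adjusted p = 0.250). Sfxn2 differed by 0.27 (0.02 to 0.52, adjusted p = 0.320), Cyp17a1 by 0.87 (-0.16 to 1.89, adjusted p = 0.459) and As3mt by 0.09 (-0.19 to 0.38, adjusted p = 0.811). Over these 3 comparisons no group of libraries separated for any of the 10 genes, where 1.38%, 11.1% and 16% of all genes separated. The smallest adjusted p of any of the 10 under any alternative was 0.093. A p that misses the threshold does not show that the groups are equal: in simulated data of these libraries, 38 of 50 genes changed by 1 log2 unit were recovered in KO_star against WT_star, 37 in KO_star against KO and 33 in WT_star against KO. Those genes were drawn at random, and Cyp17a1 had the widest intervals of the 10, so these counts need not hold for it. The simulated data also held many changed genes, with 189 called in KO_star against WT_star, where the real data had 0. An adjusted p depends on how many genes change, so the recovery may be too high for that comparison.

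**Figure D3:**
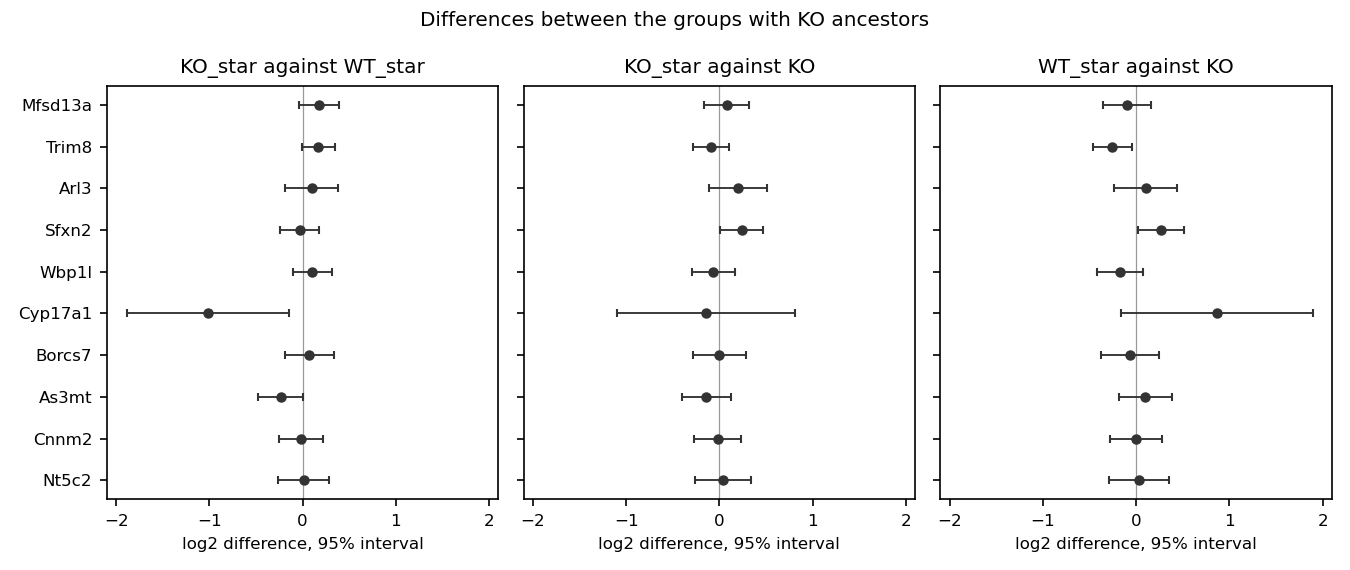
Log2 difference (first group minus second) of each gene between groups with Khdc3-null ancestors, with its 95% interval from limma; the vertical line marks no difference. Cyp17a1 has the widest intervals, -1.88 to -0.14 in KO_star against WT_star, and adjusted p-values of the 10 genes were 0.250 or more.

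Around these genes, 39 other genes with a start within 2 Mb of the Cyp17a1 start were tested, and the list was counted in each comparison. In KO against WT, Gsto1 was higher and Slk and Col17a1 lower (3 of 39, beside 2.89% of all genes). In WT_star against WT, Gsto1 was higher and Slk lower (beside 0.904%). In KO_star against WT, Gsto1 and Btrc were higher and Slk and Sfr1 lower (beside 0.706%). None of the 39 was called among the groups with Khdc3-null ancestors. The list's median log2 difference from WT was 0.10 in KO, 0.04 in WT_star and 0.09 in KO_star, beside 0.01, 0.00 and 0.00 over all genes. Only 2 of the 39, Actr1a and Sufu, start between the outermost of the 10 genes. Their log2 differences from WT ran from -0.07 to 0.15, and neither was called.

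Gsto1, a glutathione transferase that reduces arsenic species, starts 1182 kb from Cyp17a1, on the As3mt side. Its normalized read count averaged 1167 ± 146 (SD) in WT, 2082 ± 94.6 in KO, 1736 ± 199 in WT_star and 1630 ± 223 in KO_star. It rose by 0.84 (SE 0.12, adjusted p = 0.00129 in limma) in KO, 0.57 (SE 0.12, adjusted p = 0.0269) in WT_star and 0.48 (SE 0.11, adjusted p = 0.0454) in KO_star on the log2 scale. The first call was kept under all 26 alternatives, the second was lost in 5 and the third in 13. Slk, a protein kinase, fell by 0.59 (SE 0.10, adjusted p = 0.00458) in KO, fell by 0.58 (SE 0.09, adjusted p = 0.00731) in WT_star and fell by 0.62 (SE 0.09, adjusted p = 0.00144) in KO_star. Its levels were 1755 ± 209 in WT, 1164 ± 93.3 in KO, 1175 ± 126 in WT_star and 1137 ± 70.7 in KO_star, with no overlap with WT. The Slk call in WT_star was lost only when the fit held these 2 groups alone.

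Btrc, the substrate-binding subunit of a ubiquitin ligase, rose by 0.52 (SE 0.08, adjusted p = 0.00347 in limma) in KO_star, from 367 ± 49.8 to 525 ± 30.5. Sfr1, a factor of recombination repair, fell by 0.67 (SE 0.12, adjusted p = 0.0139) in KO_star, a call lost without the WT library 26, 27 or 28. Col17a1, a collagen of epithelial anchoring, fell by 1.78 (SE 0.42, adjusted p = 0.0318) in KO, at levels of only 4.25 ± 1.20 against 17.4 ± 6.13. That call was lost in 6 alternatives, which were the fits without any 1 of the KO libraries 30, 31 and 32 or the WT libraries 25, 26 and 28. Against WT, Col17a1 also differed by -1.31 in WT_star and -1.45 in KO_star, and Sfr1 by -0.48 in KO and -0.56 in WT_star. Btrc differed by 0.21 in KO and 0.29 in WT_star. None of these further differences was called.

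**Figure D4:**
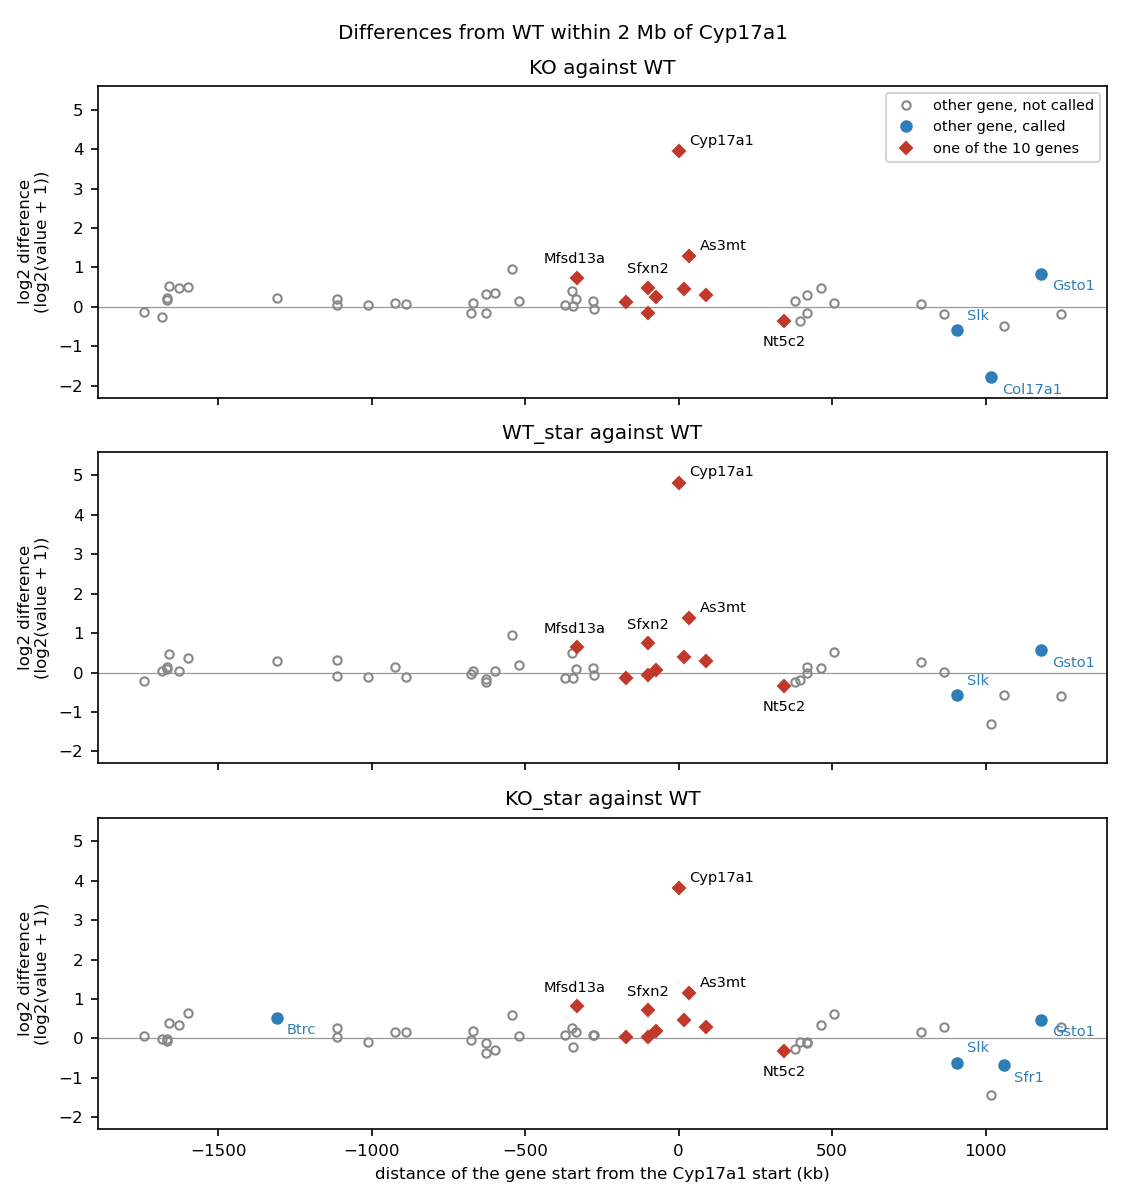
Log2 difference from WT of the 49 tested genes with a start within 2 Mb of Cyp17a1, by distance from its start in kb; diamonds are the 10 genes, given as a description, and filled circles are other genes with an adjusted p under 0.05. Cyp17a1 stands at 3.81 to 4.82, As3mt at 1.14 to 1.38, and Gsto1 and Slk are the other genes called in all 3 panels.

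The pathways that the 10 genes belong to were counted next. Of 45 listed genes of steroid hormone synthesis and breakdown other than Cyp17a1, 32 were tested. None passed in KO or KO_star against WT, and 1 passed in WT_star against WT: Hsd17b6, a hydroxysteroid dehydrogenase, fell by 1.27 (SE 0.28, adjusted p = 0.0472 in limma), a call lost in 12 of 26 alternatives. Hsd3b3, of the family that converts pregnenolone to progesterone, was higher in WT_star than in KO by 0.78 (SE 0.18, adjusted p = 0.0396), a call lost in 11. The list's median log2 difference from WT was -0.18 in KO, -0.02 in WT_star and -0.03 in KO_star. Beside the shares of all genes called, 2.89%, 0.904% and 0.706%, a count of 0 or 1 of 32 is near the background and says little.

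Markers of cells that make steroids were also read. Of 10 listed markers of the adrenal cortex and the gonads, 8 were in the table and 1, Star, was tested. Star, which carries cholesterol into mitochondria, ran from 21.3 to 39.4 over all libraries, with means of 29.6 in WT, 29.5 in KO, 29.9 in WT_star and 27.9 in KO_star. Cyp11a1, the first enzyme of the pathway, had at most 4 reads in any library, Cyp21a1 at most 3, and the steroidogenic regulator Nr5a1 at most 1. Cyp11b2 had at most 2, Lhcgr at most 1, Insl3 at most 7 and Inha at most 15. Means of Inha were 2.17 in WT, 1.62 in KO, 3.21 in WT_star and 6.74 in KO_star. Those of Cyp11a1 were 0.21, 0.33, 1.36 and 2.12 in the same order. The summed level of the list was 28.4 to 43.5 in WT, 31.1 to 42.3 in KO, 33.8 to 42.1 in WT_star and 33.4 to 55.5 in KO_star. Star made up most of each sum, and a part of such cells in the Cyp17a1 levels was not tested.

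Of 32 listed genes of arsenic and methyl group handling other than As3mt, 29 were tested. In KO against WT, Gsto1 and Aqp9 were higher and Tpmt lower. In WT_star against WT, Gsto1 was higher and Gamt and Tpmt lower, and in KO_star against WT, Gsto1 was higher and Tpmt lower. These are 10.3%, 10.3% and 6.90% of the 29, beside 2.89%, 0.904% and 0.706% of all genes. The list was chosen with earlier results of these data known, so nothing is read from these shares. The comparisons also share the WT libraries, and Gsto1 is counted among the neighbours of Cyp17a1 as well. The list's median log2 difference from WT was -0.12 in KO, -0.12 in WT_star and 0.00 in KO_star. Among the groups with Khdc3-null ancestors, Tpmt was higher in KO_star and in WT_star than in KO, and Aqp9 was lower in WT_star than in KO, beside 1.46% and 1.4% of all genes called in these comparisons with KO.

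Tpmt, a methyltransferase of thiol drugs on chromosome 13, had a normalized read count of 1719, 1737, 1501 and 1573 in WT and of 376, 430 and 424 in KO. It was 726, 630, 1124 and 954 in WT_star. Tpmt fell by 1.99 on the log2 scale in KO (SE 0.20, adjusted p = 3.25e-05 in limma). It fell by 0.96 (SE 0.19, adjusted p = 0.0234) in WT_star and fell by 1.10 (SE 0.17, adjusted p = 0.0035) in KO_star. The WT_star call was lost in 5 alternatives and the others in none. Against KO, Tpmt was 0.89 higher in KO_star (adjusted p = 0.027) and 1.03 higher in WT_star (adjusted p = 0.0186), each lost in 4. Its order over the groups thus differed from that of As3mt, which was not called between any groups with Khdc3-null ancestors. Aqp9, a channel that carries glycerol and arsenite, lies on chromosome 9, as does Khdc3. It rose by 0.39 (SE 0.10, adjusted p = 0.0435) in KO against WT, a call lost in 11 alternatives. Gamt, which makes creatine by methyl transfer, fell by 0.57 (SE 0.13, adjusted p = 0.0467) in WT_star, a call lost in 16.

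Of the 12 listed genes of the BORC complex and lysosome positioning other than Borcs7, none was called in any of the 6 comparisons, in which their log2 differences ran from -0.51 to 0.38. Of 28 listed relatives and partners of the other genes, 26 were tested. Nt5e, the cell surface AMP nucleotidase, also on chromosome 9, was higher in KO by 0.86 (SE 0.16, adjusted p = 0.0076 in limma), from 1522 ± 336 (SD, n = 4) to 2728 ± 254 (n = 3). It was also higher in KO_star by 0.60 (SE 0.13, adjusted p = 0.0499), a call lost in 20 alternatives. No other gene of that list passed. At the shares of all genes called, from 0% to 2.89%, counts of 0 or 1 in lists of 12 and 26 genes are near the background.

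The genes most like Cyp17a1 were sought by ranking the 17 libraries for each of 9847 genes with a group mean of 100 or more and taking the mean absolute difference in rank. The median over those genes was 5.65 ranks. The smallest values were 1.76 for Irf9, a regulator of interferon responses, 1.88 for Prpsap2, and 2 each for As3mt, for Nr1h3, the liver X receptor alpha, and for Angptl8, a secreted regulator of lipoprotein lipase. Irf9 measured 459 ± 74.6 in WT, 669 ± 80.8 in KO, 725 ± 41.5 in WT_star and 630 ± 77.3 in KO_star, a similar order on a far smaller scale than that of Cyp17a1. The genes most like As3mt were Bcap29 at 1.65, Cyp17a1 and Angptl8 at 2, Apol7a at 2.12 and Vps36 at 2.24. Sfxn2 was 40th in likeness to Cyp17a1 and 8th to As3mt. Borcs7 was 792nd and 36th, and Nt5c2, at 7.18 and 7.29 ranks, was among the least like both. These libraries share the group structure by which Cyp17a1 and As3mt were chosen, so the values are a description.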

How the data were processed

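The 17 libraries were made from total RNA of mouse liver with a stranded kit that removes ribosomal RNA, per the labels' protocols. Tools named in the submitters' processing notes are cutadapt, HISAT2 and DESeq2, with GRCm38 as the build. Versions, the counting tool with its annotation, and its strand setting are not given. The authors deposited a normalized signal for each gene and library, which is a read count divided by 1 size factor per library, as 100.0% of the values come out as whole reads within 0.001. A single read is worth 0.792 to 1.18. Libraries of the same group were compared as 30 pairs, and none agreed within sampling noise (chi-square per degree of freedom of at least 8.53). GENCODE M21, matched by 26963 identifiers, gave positions and exon lengths. Reads carry no molecular identifiers.

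The log2(value + 1), a scale that understates changes of low genes, was tested with limma 3.58.1 in R 4.3.3. All 17 libraries entered 1 model of group means with trended and robust variances. The filter kept genes that reached 10 in 3 or more libraries. Each test was two-sided, and p-values were adjusted by Benjamini-Hochberg across the genes kept, at a threshold of 0.05. A fold is the log2 difference taken out of the log. Reads recovered from the values were also tested with edgeR 4.0.16 and DESeq2 1.42.0. The other settings tried were a pseudocount of 0.5 or 5, a filter of 50 or none, equal library totals, quantile normalization, only the 2 groups compared, and each library left out. The fit was tested on simulated data.

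Named genes are the 10, the listed genes past the threshold (at most 4 per list and comparison), and the 5 genes nearest in rank to Cyp17a1 and to As3mt, with predicted genes left out of the latter. The members and lists were chosen with earlier results of these data known.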

Additional observations from a re-analysis of the deposited data

Results flagged for a closer look

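Over 30 sets, each of 1 gene in 1 group of libraries, 1 was found with a library far from the others by Dixon's criterion. Sfxn2 in the WT_star library 21 was 892, while the other WT_star libraries were 1212 to 1229. The gap was 0.949 of the range of that group. Chance flags about 1 in 20 such sets, but these sets share libraries and are not independent. Sfxn2 in library 21 was still above the highest WT library, at 743.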

How the results depend on the processing

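Leaving out 1 library at a time moved the count of genes called to 150 to 617 in KO against WT, 33 to 184 in WT_star against WT, 51 to 140 in KO_star against WT, 0 to 20 in KO_star against WT_star, 37 to 364 in KO_star against KO and 34 to 265 in WT_star against KO. DESeq2 called 865, 602, 341, 62, 814 and 526 genes in these comparisons, against 467, 146, 114, 0, 236 and 226 in limma. Equal library totals gave 363 in KO_star against KO, and fits of only the groups compared gave 754, 96 and 68 in the first 3. The split of higher against lower calls was 213 to 254 in KO against WT and 338 to 188 with equal totals. It went from 86 and 60 to 106 and 41 in WT_star against WT, from 160 and 76 to 149 and 214 in KO_star against KO, and from 147 and 79 to 107 and 102 in WT_star against KO.

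Against WT, Cyp17a1 ranged from 3.48 to 4.38 in KO, 4.56 to 5.03 in WT_star and 3.68 to 4.01 in KO_star over all alternatives, and As3mt from 1.16 to 1.41, 1.31 to 1.47 and 1.08 to 1.20.

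Among groups with Khdc3-null ancestors, 739 of 780 log2 differences kept their sign. In KO_star against KO, Borcs7 turned to -0.000117 in edgeR, -0.046 with equal totals and -0.020 with quantile normalization, and Nt5c2 to -0.0081 with equal totals. Nt5c2 turned to -0.011 in KO_star against WT_star with equal totals, and Cnnm2 to 0.0066 in WT_star against KO with quantile normalization. Over left-out libraries, log2 differences in KO_star against KO ran from -0.57 to 0.33 for Cyp17a1, -0.086 to 0.088 for Borcs7, -0.19 to 0.10 for Cnnm2, -0.030 to 0.14 for Nt5c2, -0.19 to 0.050 for Trim8 and -0.11 to 0.0026 for Wbp1l. In WT_star against KO they ran from -0.034 to 0.21 for As3mt, -0.16 to 0.018 for Borcs7, -0.18 to 0.12 for Cnnm2 and -0.074 to 0.13 for Nt5c2. In KO_star against WT_star they ran from -0.048 to 0.041 for Cnnm2, -0.068 to 0.11 for Nt5c2 and -0.14 to 0.010 for Sfxn2. The cause was not tested.

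No paired analysis was possible because no library number occurs in more than 1 group.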
